A study of Mus musculus with 12 samples.

Results

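The mRNAs of 9 RNA-binding regulators of translation were followed through RNA immunoprecipitation and sequencing (RIP-seq) of YTHDF1, YTHDF2 and YTHDF3. They belong to the fragile X family (Fmr1, Fxr1 and Fxr2), the cytoplasmic polyadenylation element binding proteins (Cpeb2, Cpeb3 and Cpeb4), the Pumilio family (Pum2) and the Staufen family (Stau1 and Stau2). The members were chosen by gene name, with no measured value in the rule, from the 55573 genes of the count table. All 9 were present and all 9 were among the 17126 genes whose mean normalized count reached 10. The values are amounts of each mRNA, so they describe recovery of the transcript of a regulator and not of its protein.

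All 12 libraries came from primary hippocampal neurons isolated from neonatal C57BL/6 mice, an inbred strain, and kept for 14 days in culture. Groups of 3 replicates each were Input, which is total RNA from a fraction of the cell lysate and had no antibody, and the YTHDF1 RIP, YTHDF2 RIP and YTHDF3 RIP, made with an antibody against the endogenous protein. No group carried a genetic change or a drug treatment in the labels. Hippocampi of a litter were pooled before plating according to the methods, so a replicate is a culture and not an animal. The methods also describe a lysate of each replicate that was divided among the RIPs beside a common Input. The main model does not use this sharing, and its p-values measure the spread between samples. In fits with a replicate block they measure the spread of differences within a replicate number. RNA from a control antibody was not analysed here, and enrichment is relative to Input alone. The methods describe DNase treatment of Input RNA and name none for RIP RNA. Differences from Input may include this step, whose part was not tested.

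YTHDF proteins are cytoplasmic readers of N6-methyladenosine (m6A), a methylated adenosine found mostly in coding sequence near the stop codon and in 3′UTRs, and they are known to affect the translation, decay and localization of the mRNAs they bind. FMRP, the product of Fmr1, is a ribosome-associated repressor whose loss causes fragile X syndrome, and FXR1P and FXR2P are its paralogs. CPEB proteins bind U-rich elements in 3′UTRs and govern poly(A) tail length and translation, Pumilio proteins bind UGUA-containing elements and repress translation, and Staufen proteins bind double-stranded RNA and take part in dendritic RNA transport. All of these proteins act on mRNAs that neurons translate locally in dendrites and at synapses.

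Total counts per library ranged from 9092494 to 13833973 in Input, 10037804 to 38909592 in the YTHDF1 RIP, 6020072 to 9259893 in the YTHDF2 RIP and 21395271 to 22400602 in the YTHDF3 RIP. Replicate 1 of the YTHDF1 RIP and replicate 3 of the YTHDF2 RIP stood apart, with counts in 35147 and 31334 genes against 24871 to 28828 in the other 10 libraries. Larger moves in the numbers of calls with both left out are given as such. The lowest count of any member in any library was 142, for Cpeb3 in replicate 2 of the YTHDF2 RIP. All 8 neuron markers had counts in every library, with a summed level of 2685 to 4320 CPM (counts scaled to a common library size) in Input. The 5 astrocyte markers also had counts in every library, and their sum ran from 251 to 2425 CPM within Input, while 5 microglia markers summed to at most 3.96 CPM and 3 endothelial markers to at most 19.1 CPM. Of 5 oligodendrocyte lineage markers, Mog and Mag stayed at or below 0.286 CPM in every group mean, and Olig1 and Pdgfra averaged 148 and 59.0 CPM in Input. In bulk libraries fewer cells of a type and less RNA per cell cannot be told apart.

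The 3 CPEB transcripts carry the main result, so the stretch of each 3′UTR that holds the U-rich hexamer nearest to the 3′ end is shown first. The hexamer TTTTAT, written as DNA with T for U, is the core of the cytoplasmic polyadenylation element that gives the CPEB family its name. Whether CPEB2, CPEB3 or CPEB4 binds it was not measured here. Sequences are from GENCODE M21 transcripts on build GRCm38, 5′ to 3′ along the mRNA, with the hexamer in capitals. They lie in 3′UTR exons at chr5:43289557-43289580 on the plus strand for Cpeb2, chr19:37021509-37021532 on the minus strand for Cpeb3 and chr11:31935409-31935432 on the plus strand for Cpeb4.

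Cpeb2: tttagtttaTTTTATtgttatctt

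Cpeb3: ataaattaaTTTTATgatgctaat

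Cpeb4: taattcattTTTTATtaaagtcat

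The annotated genes lie at chr5:43233170-43289724 for Cpeb2, chr19:37021291-37208601 for Cpeb3 and chr11:31872211-31935634 for Cpeb4. In the longest coding transcript of each gene the 3′UTR had 3778 bases for Cpeb2, 3569 for Cpeb3 and 4102 for Cpeb4, against a median of 1223 over 13267 protein-coding genes tested. The hexamer occurred 20 times in the 3′UTR of Cpeb2, 11 times in that of Cpeb4 and 6 times in that of Cpeb3, searched on the transcript strand alone. Among all 13267 genes 58.0% had at least 1 copy and the median was 1, and 99.9%, 98.7% and 92.6% of genes had fewer copies than Cpeb2, Cpeb4 and Cpeb3. Long 3′UTRs of low GC content hold more copies of any such sequence, and the GC content of these 3′UTRs was 33.4%, 34.4% and 39.4% for Cpeb2, Cpeb4 and Cpeb3, against a median of 44.3%.

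The mRNAs of the 3 CPEB genes in the set were recovered with YTHDF1 at levels far above Input. Neither of the other RIPs came near these levels. Cpeb2 mRNA, which encodes a CPEB protein known as a repressor of translation elongation, stood at 78.2, 58.9 and 44.1 normalised CPM in the 3 Input libraries. In the YTHDF1 RIP it stood at 1007, 2915 and 1608 CPM. The lowest YTHDF1 library lay far above the highest Input library. Enrichment was 4.93 ± 0.44 (log2 fold change ± SE, n = 3 against 3), or 30.5-fold, with an adjusted p of 9.89e-06 by edgeR's quasi-likelihood test with Benjamini-Hochberg adjustment over all 17126 genes. That placed Cpeb2 at rank 54 of all genes tested. The pattern does not cover the whole CPEB family. Cpeb1, which is outside the set, had a log2 fold change of 0.61 ± 0.41 with YTHDF1 that did not pass the test (adjusted p = 0.232, edgeR).

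Cpeb3 encodes a repressor of synaptic mRNAs that is known for a prion-like domain and a role in memory. Its level was 49.2, 41.5 and 20.99 CPM in Input and 294, 515 and 594 CPM in the YTHDF1 RIP, with no overlap between the groups. The log2 fold change was 3.65 ± 0.48, or 12.5-fold (adjusted p = 9.80e-05, edgeR, rank 165). Cpeb4, whose protein is known to control poly(A) tails in neurons and the cell cycle, was at 139, 134 and 111 CPM in Input and at 607, 2139.5 and 958 CPM in the YTHDF1 RIP. All 3 YTHDF1 libraries were again above all 3 Input libraries, by a log2 fold change of 3.27 ± 0.41, or 9.66-fold (adjusted p = 6.82e-05, edgeR, rank 250).

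These calls held in every fit that left out 1 of the 12 libraries, with log2 fold changes of 4.36 to 5.23 for Cpeb2, 3.25 to 3.90 for Cpeb3 and 2.54 to 3.60 for Cpeb4. The 3 profiles also ran together over the 12 libraries, with Pearson correlations of log2 CPM between 0.949 and 0.979, a description over libraries that share their group and depth. Summed neuron markers were 4251 to 7108 CPM in the YTHDF1 RIP against 2685 to 4320 CPM in Input, and within Input they were highest in replicate 1 and lowest in replicate 3, as were Cpeb2, Cpeb3 and Cpeb4. The higher sum with YTHDF1 came mostly from Map2 (mean of 1510 CPM in Input and 4228 CPM with YTHDF1). Gad1 and Rbfox3 also had higher means, and the means of the other 5 markers, Tubb3, Syp, Snap25, Slc17a7 and Gad2, were lower than in Input. The part of neuronal RNA content in the CPEB values was not tested.

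**Figure D1:**
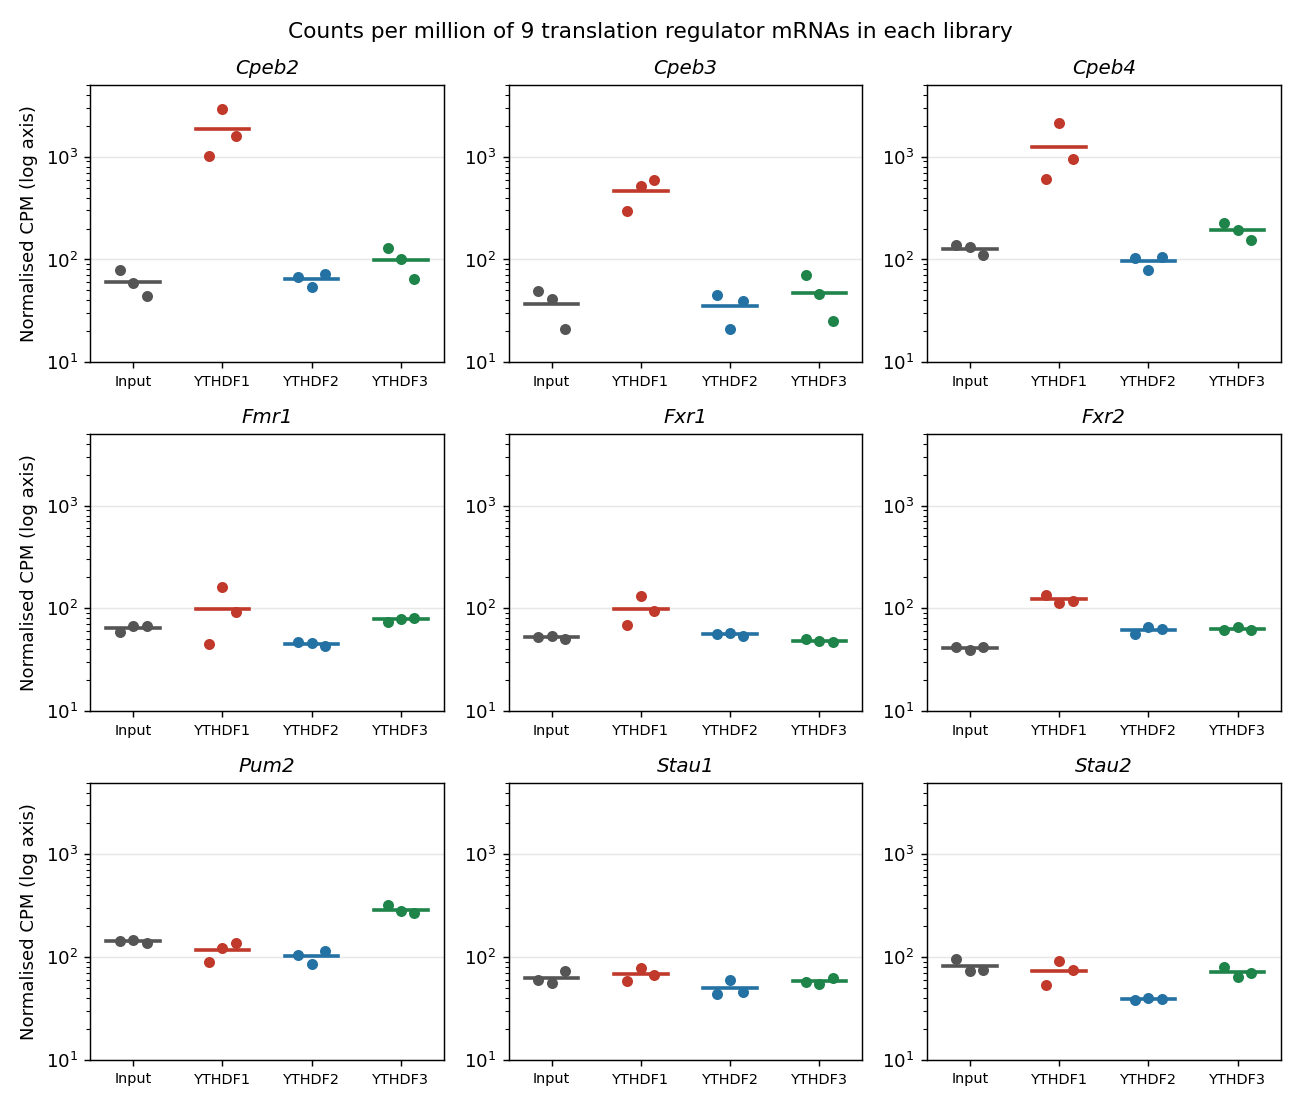
Normalised CPM on a log axis of each of the 9 mRNAs in the 3 replicates of Input and of each RIP, as points in the order of replicates 1 to 3, with a bar at the group mean. Cpeb2, Cpeb3 and Cpeb4 lie far above their other libraries in the YTHDF1 RIP, Pum2 is highest in the YTHDF3 RIP at 268 to 319 CPM, and Stau2 is lowest in the YTHDF2 RIP at 38.4 to 39.7 CPM.

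In the YTHDF2 RIP the same mRNAs stayed close to Input. Cpeb2 was at 68.1, 54.3 and 72.9 CPM, within its Input range, and its log2 fold change was 0.11 ± 0.38 (adjusted p = 0.847, edgeR). Cpeb3 was at 45.3, 21.2 and 39.7 CPM (-0.07 ± 0.44), and Cpeb4 at 103, 78.8 and 105 CPM (-0.42 ± 0.37). Cpeb4 was the sole CPEB mRNA whose YTHDF2 libraries all lay below Input, and its difference did not pass the test.

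In the YTHDF3 RIP the CPEB mRNAs were moderately above Input. Cpeb2 was at 130.4, 100.1 and 65.1 CPM, Cpeb3 at 70.2, 46.6 and 25.2 CPM and Cpeb4 at 229, 195 and 153 CPM. The log2 fold changes of 0.71 ± 0.38, 0.34 ± 0.43 and 0.59 ± 0.37 did not pass the test in the model of all 12 libraries (adjusted p = 0.163, 0.563 and 0.236, edgeR). For YTHDF3 and Input, replicates with the same number deviated together, and each YTHDF3 library was above the Input library of its own number for all 3 genes. A paired fit of these 2 groups called all 3 enriched, with log2 fold changes of 0.75 ± 0.10, 0.37 ± 0.10 and 0.64 ± 0.09 for Cpeb2, Cpeb3 and Cpeb4 (adjusted p = 2.22e-07, 0.00158 and 1.51e-06, edgeR). The same paired fit called 36.3% of all genes enriched and 32.2% depleted, so such a call is common.

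The fragile X family was recovered with YTHDF1 to a smaller extent, and Fxr2 was the member enriched in all 3 RIPs. GGACT is among the commonest sequences around m6A, and its copy nearest to the stop codon is shown for 2 of these mRNAs, 10 bases either side, with the motif in capitals, from the same transcripts and build. In Fxr2 it lies in coding sequence 227 bases before the end of the stop codon, at chr11:69652028-69652052 on the plus strand. In Fxr1 it lies in coding sequence 60 bases before that point, at chr3:34064264-34064288 on the plus strand.

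Fxr2: cgtggtaaccGGACTgatgggtcca

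Fxr1: tctgatggatGGACTgactgaatct

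The motif is common, since 92.9% of the 13267 transcripts held at least 1 copy on their own strand, and the median density was 1.04 per kb. Fxr2 had the highest density among the 9 members, with 5 copies or 1.69 per kb, and the densities of the rest ran down to none in the transcript used for Stau2. The CPEB transcripts were near or below the median, with 0.851 per kb in Cpeb2, 1.02 in Cpeb3 and 0.317 in Cpeb4. In the 300 bases centred on the end of the stop codon, 33.4% of 12450 transcripts held the motif, and Fxr1 was the single member that did, with 2 copies. A match is a property of the sequence and does not show methylation, which these libraries did not measure.

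Fxr2, a paralog of FMRP, had the narrowest spread of the members enriched with YTHDF1. Its levels were 41.9, 38.9 and 42.4 CPM in Input and 135, 114 and 118 CPM in the YTHDF1 RIP, so that the groups were well apart. The log2 fold change was 1.57 ± 0.14, or 2.97-fold (adjusted p = 1.06e-05, edgeR). It was at 56.0, 66.1 and 63.1 CPM in the YTHDF2 RIP and at 62.1, 65.6 and 61.3 CPM in the YTHDF3 RIP, and every library of both groups was above every Input library. Fxr2 was enriched by 0.59 ± 0.14 in the YTHDF2 RIP (adjusted p = 0.00789) and by 0.62 ± 0.14 in the YTHDF3 RIP (adjusted p = 0.00465, both edgeR). With no filter on low counts, neither of the smaller changes passed, at adjusted p of 0.358 and 0.0525, and with the replicate number as a block in a fit of YTHDF2 and Input alone the YTHDF2 value had an adjusted p of 0.0597.

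Fxr1, the other paralog, which is also known for its role in muscle, was at 53.0, 53.6 and 50.4 CPM in Input. In the YTHDF1 RIP it rose to 68.1, 131 and 93.4 CPM, with all 3 libraries above Input and a wide spread among them. The log2 fold change was 0.90 ± 0.20, or 1.86-fold (adjusted p = 0.00336, edgeR). The call was lost when the trend of enrichment with gene length was removed from each library (0.48, adjusted p = 0.0778) and in a fit of YTHDF1 and Input alone with the replicate number as a block (0.74, adjusted p = 0.109). Levels of 53.5 to 57.6 CPM with YTHDF2 and 46.8 to 50.8 CPM with YTHDF3 gave log2 fold changes of 0.09 ± 0.20 and -0.11 ± 0.20, neither past the test.

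The result for Fmr1 itself with YTHDF1 turned on single libraries. Input held 58.7, 67.1 and 66.5 CPM and the YTHDF1 RIP 45.1, 160 and 91.5 CPM. Replicate 1 of the YTHDF1 RIP was below every Input library and the other two were above, and the log2 fold change of 0.62 ± 0.33 did not pass the test (adjusted p = 0.133, edgeR). Without that replicate, which is one of the libraries that stood apart, the value rose to 0.97 (adjusted p = 0.0037), and without replicate 2 it was 0.02. The YTHDF2 libraries at 47.3, 45.8 and 42.9 CPM were all below Input (-0.50 ± 0.33), and the YTHDF3 libraries at 73.6, 79.0 and 81.3 CPM were all above it (0.28 ± 0.33), neither past the test (adjusted p = 0.267 and 0.53). When YTHDF3 libraries were paired with Input by number, Fmr1 was enriched by 0.34 ± 0.09 (adjusted p = 0.00224, edgeR), as were 36.3% of all genes in that fit.

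Pum2, a Pumilio repressor known to limit dendrite growth and excitability, was highest with YTHDF3 and not with YTHDF1. It was at 145, 146 and 138 CPM in Input and at 319, 279 and 268 CPM in the YTHDF3 RIP, with wide separation between the groups. The log2 fold change was 1.01 ± 0.19, or 2.02-fold (adjusted p = 0.00143, edgeR), and the paired fit gave 1.07 ± 0.09. In the YTHDF1 RIP, Pum2 was at 90.5, 124 and 138 CPM, with the highest of these just under the lowest Input library, and the log2 fold change was -0.28 ± 0.19 (adjusted p = 0.224). In the YTHDF2 RIP it was at 106, 85.4 and 115 CPM, all below Input, for a log2 fold change of -0.48 ± 0.19 that missed the threshold (adjusted p = 0.0673, edgeR). Both of these values passed it once the length trend was removed, at -0.81 (adjusted p = 0.00233) and -0.79 (adjusted p = 0.00547), and enrichment with YTHDF3 was then 0.63 (adjusted p = 0.0138). The YTHDF2 value of Pum2 also passed without the libraries that stood apart (-0.59, adjusted p = 0.0275), and in 11 of 24 alternatives in all.

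Pumilio proteins bind the element TGTANATA, and the first copy in the 3′UTR of Pum2 itself, at base 445 of that 3′UTR and chr12:8750157-8750180 on the plus strand, is shown with the element in capitals.

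Pum2: tatagagaTGTATATAgaattata

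This element had 2 copies in the 3′UTR of Pum2 and 2 in that of Fmr1, 1 each in those of Cpeb2 and Cpeb3 and 0 in those of the other members, against 27.8% of the 13267 genes with at least 1 copy. The search covered the transcript strand alone.

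Staufen mRNAs passed the test for enrichment in none of the 3 RIPs, and Stau2 fell with YTHDF2. Stau2, which encodes the brain form of Staufen known from dendritic RNA granules, was at 94.9, 73.9 and 75.7 CPM in Input and at 38.4, 39.7 and 39.3 CPM in the YTHDF2 RIP. The 3 YTHDF2 libraries were tightly grouped and far below Input, and Stau2 fell by 1.06 ± 0.20 on the log2 scale (adjusted p = 0.00224, edgeR). In the YTHDF1 RIP it was at 53.7, 91.0 and 74.4 CPM and in the YTHDF3 RIP at 79.5, 64.5 and 70.0 CPM, overlapping Input in both. The log2 fold changes of -0.16 ± 0.20 and -0.19 ± 0.20 did not pass, but with the length trend removed Stau2 was depleted with YTHDF1 (-0.60, adjusted p = 0.0249), as it was with library size alone (-0.58, adjusted p = 0.0114). Stau1, the broadly expressed Staufen with a role in mRNA decay, ranged from 55.9 to 73.2 CPM in Input, 58.9 to 78.7 CPM with YTHDF1, 43.3 to 59.4 CPM with YTHDF2 and 54.7 to 63.2 CPM with YTHDF3. Its groups overlapped Input throughout, with log2 fold changes of 0.12 ± 0.18, -0.34 ± 0.18 and -0.10 ± 0.18 and adjusted p of 0.604, 0.164 and 0.677. With the length trend removed the YTHDF2 value of Stau1 was -0.59 (adjusted p = 0.0377).

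Counted together, 5 of the 9 members were enriched and 0 depleted with YTHDF1, at a log2 fold change of at least 0.32 in size and an adjusted p of at most 0.05, against 27.2% and 25.8% of all genes tested. With YTHDF2, 1 was enriched and 1 depleted, against 15.7% and 19.0% of all genes. With YTHDF3, 2 were enriched and 0 depleted, against 16.4% and 23.0% of all genes, and the paired fit called 6 enriched and 0 depleted against 36.3% and 32.2%. Of members lower than Input with YTHDF1 or YTHDF3, edgeR also gave 0 at an unadjusted p under 0.05, and DESeq2 called 0. Both counts with YTHDF2 and the main count with YTHDF3 are near or below these shares.

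Without regard to the test, all 3 libraries lay above all 3 Input libraries for 5 members with YTHDF1, 1 with YTHDF2 and 4 with YTHDF3, against 27.9%, 25.3% and 26.6% of all genes. They lay below for 1, 4 and 0 members, against 28.0%, 27.5% and 29.1% of all genes. An exact test of 3 libraries against 3 cannot give a p under 0.1, which is why the fit over all genes was used. The median log2 fold change of the members was 0.90 with YTHDF1, -0.34 with YTHDF2 and 0.34 with YTHDF3, beside 0.02, 0.02 and 0.05 over all genes tested.

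**Figure D2:**
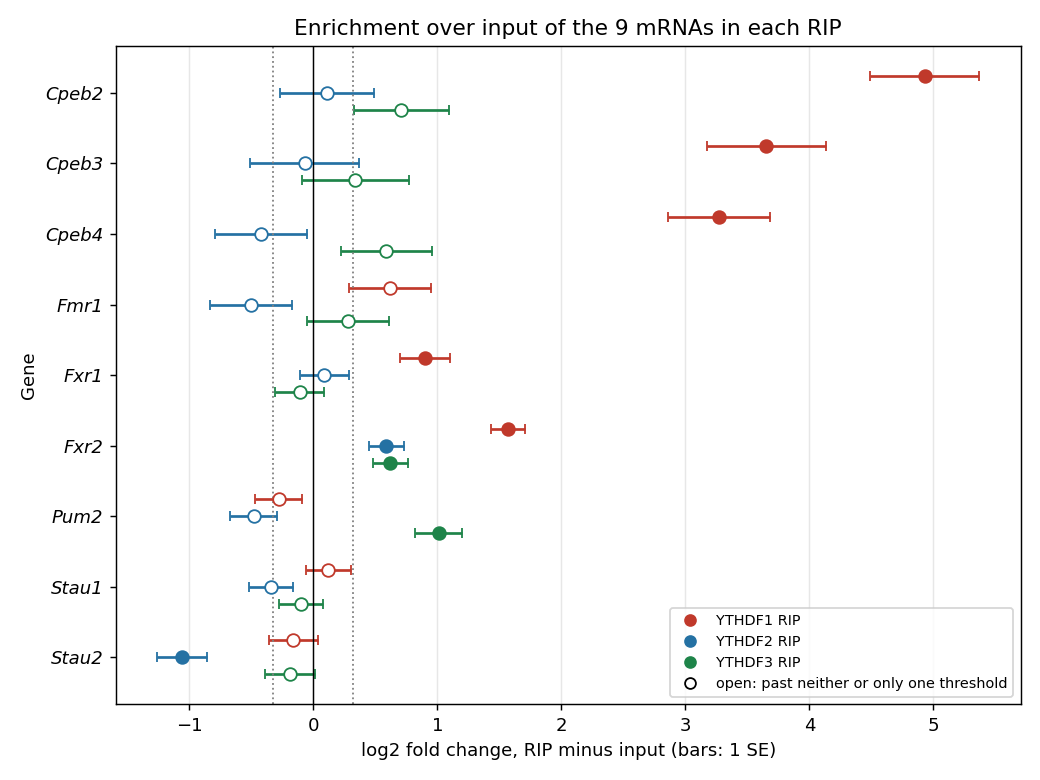
Log2 fold change of each RIP over Input for the 9 mRNAs, with bars of 1 SE (n = 3 against 3), filled points past both thresholds, and dotted lines at a log2 fold change of 0.32 either side of 0. The CPEB mRNAs with YTHDF1 lie between 3.27 and 4.93, Fxr2 is filled in all 3 RIPs, Pum2 is filled with YTHDF3 and Stau2 on the negative side with YTHDF2.

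Differences between the RIPs were then tested directly, since Input is shared by the comparisons above. A test of any difference among the 3 RIPs called 7 of 9 members, all except Fmr1 (adjusted p = 0.0558) and Stau1 (adjusted p = 0.153), against 32.3% of all genes. Between YTHDF1 and YTHDF2, 4 members were higher with YTHDF1 by at least 2-fold and 0 lower, against 11.4% and 6.1% of all genes, and 0 were lower at an unadjusted p under 0.05 by edgeR or called lower by DESeq2. Cpeb2 differed by 4.82 ± 0.44, Cpeb3 by 3.72 ± 0.48, Cpeb4 by 3.69 ± 0.41 and Fmr1 by 1.12 ± 0.33 on the log2 scale (adjusted p = 3.47e-05, 2.42e-04, 1.06e-04 and 0.0276, edgeR). The Fmr1 libraries of the 2 groups overlapped, and its call was lost without replicate 2 of the YTHDF1 RIP (0.54, adjusted p = 0.102), without replicate 3 of that RIP (1.18, adjusted p = 0.051) and without any 1 of the YTHDF2 libraries (1.09 to 1.16, adjusted p = 0.0716 to 0.0788). It was also lost in a fit of these 2 RIPs alone with the replicate number as a block (0.90, adjusted p = 0.0882, edgeR).

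Between YTHDF1 and YTHDF3, 4 members were higher and 1 lower with YTHDF1, against 10.8% and 3.63% of all genes. Cpeb2, Cpeb3 and Cpeb4 differed by 4.23 ± 0.43, 3.31 ± 0.47 and 2.68 ± 0.39, and Fxr1 by 1.01 ± 0.20 (adjusted p = 9.52e-05, 6.96e-04, 8.39e-04 and 0.00506, edgeR). The Fxr1 value lies at the threshold of a 2-fold difference and dropped under it in most other settings, down to 0.25 with library size alone as the scaling. Pum2 was lower with YTHDF1 by 2.46-fold (-1.30 ± 0.19, adjusted p = 8.34e-04), and all 3 YTHDF1 libraries were under all 3 YTHDF3 libraries. In a fit of YTHDF1 and YTHDF3 alone with the replicate number as a block, Cpeb4 (2.31, adjusted p = 0.0545), Pum2 (-1.52, adjusted p = 0.0594) and Fxr1 (0.76, adjusted p = 0.238) missed the threshold. Fxr2 fell just short of the threshold in both comparisons, higher with YTHDF1 by 0.98 ± 0.14 over YTHDF2 and by 0.96 ± 0.14 over YTHDF3 (adjusted p = 4.40e-04 and 8.39e-04).

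Between YTHDF2 and YTHDF3, 0 members were higher and 1 lower with YTHDF2, against 3.95% and 1.16% of all genes, and 0 were higher at an unadjusted p under 0.05 by edgeR or called higher by DESeq2. The member was Pum2, lower with YTHDF2 by 2.82-fold (-1.50 ± 0.19, adjusted p = 0.00255, edgeR), at rank 73 from the lowest of 17126 genes. Its levels of 85.4 to 115 CPM with YTHDF2 and 268 to 319 CPM with YTHDF3 did not overlap. Stau2 was lower with YTHDF2 by 0.87 ± 0.20 on the log2 scale, under the 2-fold threshold (adjusted p = 0.0259, edgeR). Cpeb4 differed by -1.01 ± 0.38 and passed the fold but not the test (adjusted p = 0.119).

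**Figure D3:**
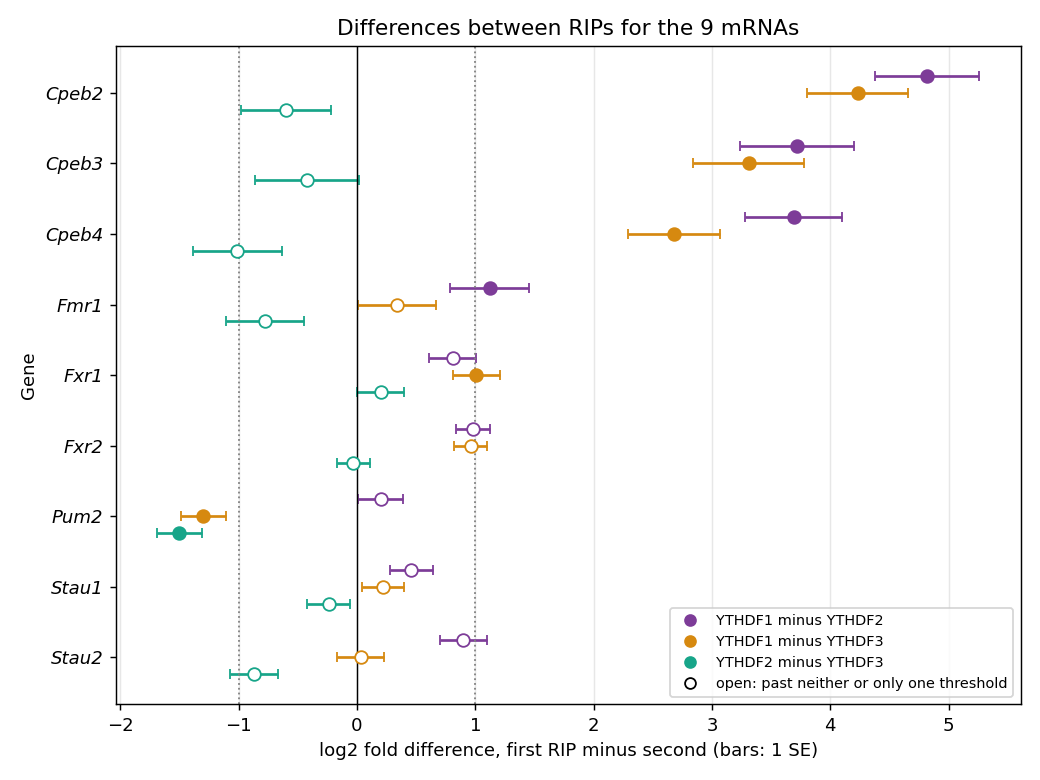
Log2 fold differences between pairs of RIPs for the 9 mRNAs, with bars of 1 SE (n = 3 against 3), filled points past both thresholds, and dotted lines at a 2-fold difference. The CPEB mRNAs lie between 2.68 and 4.82 for YTHDF1 against either other RIP, and Pum2 is the filled member on the negative side, at -1.30 and -1.50.

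Levels were also set against each other within a group after division by the merged exonic length of each gene, which ran from 3.77 kb in Fxr2 to 8.97 kb in Fmr1. In Input, Cpeb4 and Pum2 led with 20.1 ± 2.34 and 19.7 ± 0.561 CPM per kb (mean ± SD, n = 3), and their ranges overlapped. Cpeb3 was last in Input at 5.02 ± 1.96 CPM per kb, with a range that overlapped that of Fmr1 at 7.15 ± 0.525. In the YTHDF1 RIP the order changed to Cpeb2 at 236 ± 125, Cpeb4 at 194 ± 126, Cpeb3 at 63.1 and Fxr2 at 32.4 ± 3.02 CPM per kb. Of these neighbours Cpeb2 and Cpeb4 overlapped, and the rest of the top 4 did not. The other 5 members lay between 10.8 and 16.1 CPM per kb, each overlapping its neighbour.

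In the YTHDF2 RIP the first place went to Fxr2 at 16.4 ± 1.39 CPM per kb, with Cpeb4 at 15.01 ± 2.28 and Pum2 at 14.1 ± 2.11 in overlapping ranges. The YTHDF3 RIP was led by Pum2 at 39.8 ± 3.64 CPM per kb, above Cpeb4 at 30.2 ± 5.92 and Fxr2 at 16.7 ± 0.610 with no overlap between these neighbours. Cpeb3 was last in both, at 4.78 ± 1.70 and 6.38 ± 3.04 CPM per kb.

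Copies of the CPEB-type hexamer were compared with enrichment over all genes, because the 3 CPEB transcripts were rich in it. With YTHDF1 the median log2 fold change was -0.19 for 5574 genes with 0 copies in the 3′UTR, 0.11 for 4480 genes with 1 to 2, 0.42 for 2235 genes with 3 to 5 and 1.11 for 978 genes with 6 or more, which include the CPEB genes. The share of genes enriched rose over the same classes from 20.9% to 59.5%. Within the 25% of genes with the longest 3′UTRs the medians ran from 0.27 for 343 genes with 0 copies to 1.22 for 841 genes with 6 or more. There they ran from -0.20 to 0.41 after removal of the length trend, which is that with merged exonic length and not with 3′UTR length. With YTHDF2 the medians of the 4 classes lay between 0.02 and 0.14, and with YTHDF3 between -0.10 and 0.39. Within the longest 3′UTRs the YTHDF2 medians fell from 0.27 with 0 copies to 0.02 with 6 or more. The YTHDF3 medians there lay between 0.33 and 0.41, with no rise over the classes. After removal of the length trend the medians over all genes with YTHDF2 also fell, from 0.02 with 0 copies to -0.29 with 6 or more. The share enriched fell from 13.7% to 5.42%. With YTHDF3 the medians were then between -0.07 and 0.09, and the share enriched was 11.4% with 0 copies and 6.54% with 6 or more. Cpeb2, Cpeb3 and Cpeb4 were all above the median of their class with YTHDF1, as were Fxr1, Fxr2 and Stau1 with 0 copies and Fmr1 with 4 copies. Pum2 with 5 copies and Stau2 with 2 copies were below the medians of their classes. This is a description over genes, which are not independent replicates. The parts of base composition and of 3′UTR length, which can also vary within the longest 25%, were not tested.

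**Figure D4:**
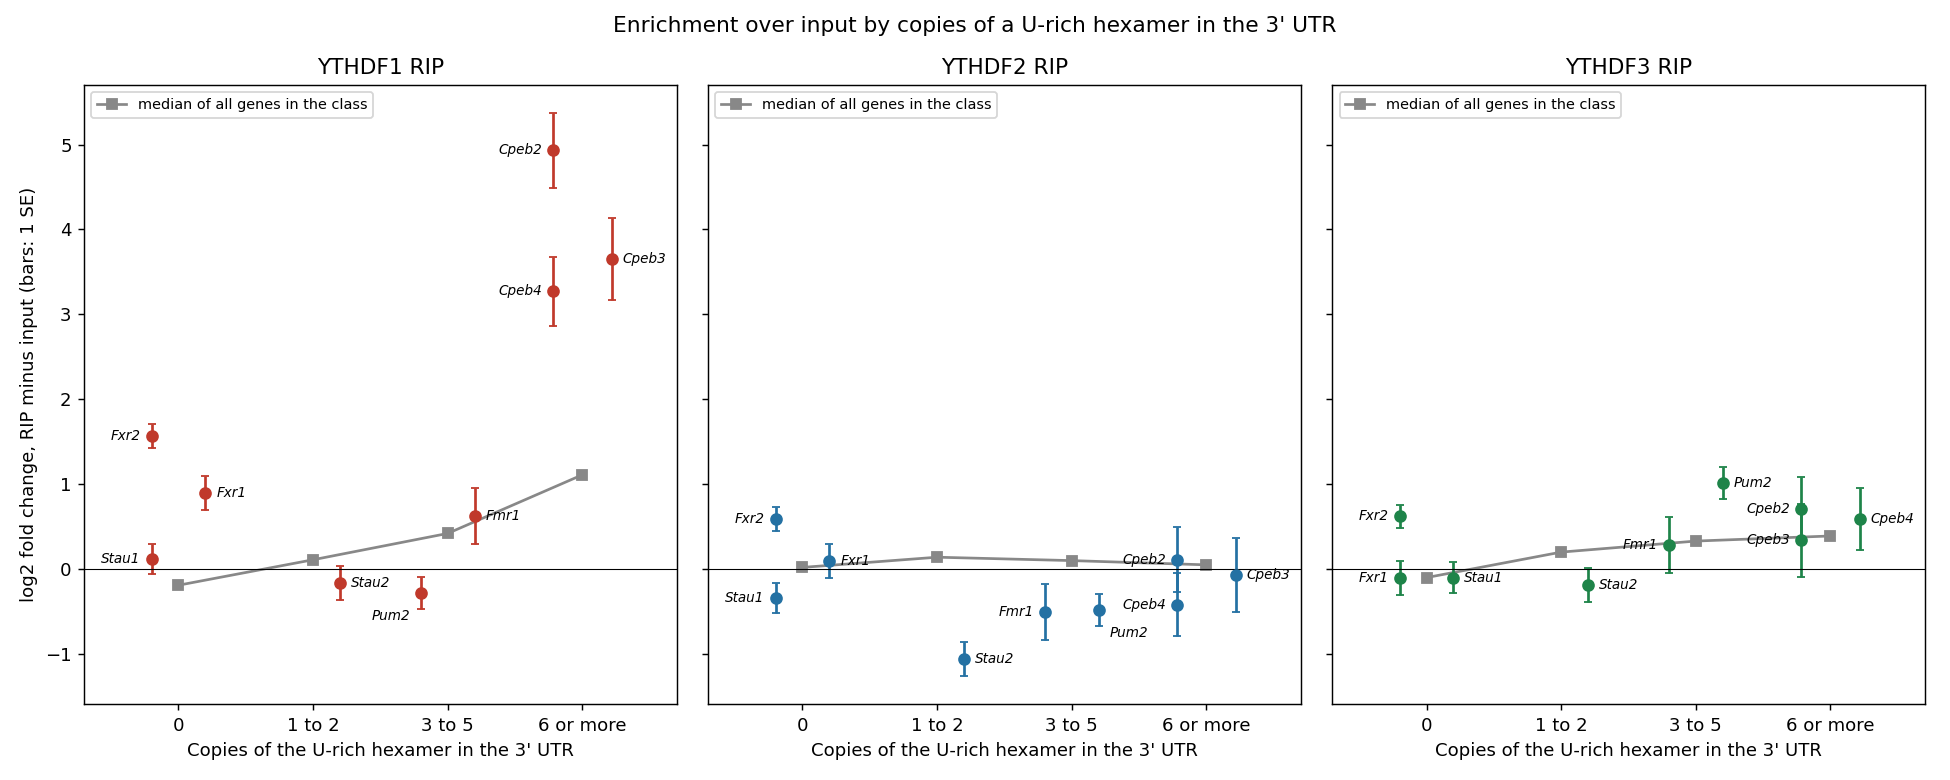
Log2 fold change over Input of the 9 mRNAs in each RIP (points, with bars of 1 SE, n = 3 against 3), placed by the number of copies of the CPEB-type U-rich hexamer in the 3′UTR, with grey squares at the median of all genes of a class. The grey medians rise from -0.19 to 1.11 with YTHDF1 and stay between 0.02 and 0.14 with YTHDF2, and the 3 CPEB mRNAs lie above the last YTHDF1 median.

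The genes whose log2 CPM over the 12 libraries was most like that of a member were sought among protein-coding genes with a mean of at least 100 normalized counts, as a description of shared pattern. Cpeb2 was closest to Pura (Pearson r = 0.996), which encodes an RNA transport granule protein, and then to Thsd7a and Ptprd, whose log2 fold changes with YTHDF1 were 4.98, 4.40 and 4.35. Cpeb4 was closest to Rc3h2 (r = 0.998), which encodes the RNA-binding protein roquin 2, followed by Zfp654 and Zbtb44. Cpeb3 was closest to Plxdc2 (r = 0.996), then Kdm7a and Slc35e2. These 9 genes had log2 fold changes of 1.91 to 4.98 with YTHDF1.

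Fxr2 was most like 1700030J22Rik (r = 0.995), Bcl7a and Tmem132c, and Fxr1 most like Bpnt2 (r = 0.989), Naa30 and Zbtb37. A correlation does not compare the size of changes. With YTHDF1 the log2 fold changes were 3.50, 3.43 and 3.59 for the genes nearest to Fxr1, against 0.90 for Fxr1 itself. They were 2.08, 2.50 and 2.93 for those nearest to Fxr2, against 1.57 for Fxr2. The nearest genes to Fmr1 were Ro60 (r = 0.965), Seh1l and Prkacb. For Pum2 they were Slc25a32 (r = 0.955), Gpcpd1 and the Argonaute gene Ago1, with log2 fold changes of 0.53 to 0.90 with YTHDF3. Stau2 ran with Kpna3 (r = 0.976) and Wasf1, whose log2 fold changes with YTHDF2 were -0.97 and -0.99. Stau1 ran with Efna2 (r = 0.917), Tubb2b and Aida.

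Genes around the members were counted in 3 lists. Of 28 genes for partner proteins and translational repressors, such as the FMRP partners Cyfip1 and Nufip2 and the cap-binding proteins, 27 were tested. With YTHDF1, 14 were enriched and 2 depleted, against 27.2% and 25.8% of all genes, and the median log2 fold change was 0.61. With YTHDF2 the counts were 5 and 4, against 15.7% and 19.0%, and the median 0.01. With YTHDF3 they were 7 and 5, against 16.4% and 23.0%, and the median 0.14. The counts with YTHDF2 and the count depleted with YTHDF3 lay near the shares over all genes. The count enriched with YTHDF3 lay somewhat above its share, a difference that was not tested. The fit paired by number called 13 enriched with YTHDF3, against 36.3% of all genes. Nufip2, for an FMRP-interacting protein, was highest with YTHDF1 at 4.12 ± 0.35, and the translation repressor gene Eif4e2 was lowest of those depleted at -0.47 ± 0.16 (adjusted p = 7.32e-06 and 0.0274, edgeR). With YTHDF2 the ubiquitin ligase gene Trim3 led at 0.93 ± 0.19 and the cap-binding protein gene Eif4e was lowest at -1.38 ± 0.30. With YTHDF3 they were Larp1, whose protein binds ribosomal protein mRNAs, at 1.09 ± 0.21, and Eif4ebp1, an inhibitor of eIF4E, at -1.47 ± 0.39. The YTHDF1 counts depended on the setting, with 7 enriched and 5 depleted after removal of the length trend, 6 and 8 with library size alone, and 4 and 0 in the fit of 2 groups with a block. Without both libraries that stood apart, 4 were depleted with YTHDF1 and 3 were enriched with YTHDF2.

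Among 30 genes for RNA transport and granule proteins, all tested, 12 were enriched and 5 depleted with YTHDF1, 8 and 4 with YTHDF2, and 6 and 3 with YTHDF3, with medians of 0.43, 0.21 and 0.42. The shares of all genes were 27.2% and 25.8%, 15.7% and 19.0%, and 16.4% and 23.0%. The fit paired by number called 16 enriched and 6 depleted with YTHDF3, against 36.3% and 32.2% of all genes, and 15 were enriched there with library size alone. With the length trend removed 3 were enriched with YTHDF2, and 9 were depleted with YTHDF1. With YTHDF3, 10 were enriched by DESeq2, and 10 without both libraries that stood apart. Pura was highest with YTHDF1 at 4.98 ± 0.40 and the stress granule gene Tia1 with YTHDF3 at 1.17 ± 0.28. Ybx1, which encodes an abundant mRNA packaging protein, was the lowest in all 3, at -2.54 ± 0.37, -2.15 ± 0.37 and -2.26 ± 0.37.

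Of 16 mRNAs described as targets of FMRP, CPEB or Pumilio proteins, all tested, 9 were enriched with YTHDF1, 5 with YTHDF2 and 8 with YTHDF3, and 0 were depleted in each, against 27.2%, 15.7% and 16.4% of all genes enriched and 25.8%, 19.0% and 23.0% depleted. The fit paired by number called 13 enriched and 2 depleted with YTHDF3, against 36.3% and 32.2% of all genes. The fit of YTHDF1 and Input with a block called 4 enriched. DESeq2 called 0, 1 and 0 depleted, and edgeR at an unadjusted p under 0.05 gave 0, 2 and 1 lower. The medians were 1.11, 0.69 and 0.95. Map1b, a microtubule protein mRNA and classical FMRP target, was highest with YTHDF1 at 3.46 ± 0.33 and with YTHDF3 at 1.47 ± 0.30, and Shank3, a synaptic scaffold mRNA, with YTHDF2 at 1.46 ± 0.33. With the length trend removed the counts enriched were 5, 2 and 2, and 2 were depleted in each RIP. Without both libraries that stood apart, 1 was depleted with YTHDF2.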

How the data were processed

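RIP and Input RNA (9 ng per library) was made into stranded total-RNA libraries with molecular identifiers. Per the labels, the authors used cutadapt 3.4, STAR 2.7.7a, UMI-tools 1.1.1 and featureCounts 2.0.1 on mm10 (GRCm38), and deposited raw counts per gene on Ensembl release 97 with strand setting 2. Reads with several alignments or overlapping genes were counted for each. Opposite-strand neighbours of Cpeb2, Cpeb3 and Fxr1 therefore do not share reads, and Fmr1 shares 0.8% of its exonic bases with Gm27838 on the same strand. The authors also deposited tables per protein from DESeq2 whose signal is a mean of counts divided by size factors. These served for gene names alone, and their fold changes and p-values were not used.

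A minimum of 10 on the mean normalized count left 17126 genes. A quasi-likelihood model of 4 groups was fitted to all 12 libraries with edgeR 4.0.16 (R 4.3.3) and TMM factors, and p-values were adjusted by Benjamini-Hochberg over all genes. Calls needed an adjusted p of at most 0.05 and a log2 fold change of at least 0.32 in size against Input, or a fold of 2 between RIPs. SE is the log2 fold change over the square root of F. The biological coefficient of variation was 0.323. Normalised CPM are counts scaled to a common TMM-adjusted library size, and log2 CPM used a prior count of 2. The fit was tested on simulated data.

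Replicate numbers of YTHDF3 and Input pair the samples, since deviations of the same number correlated by 0.829, 0.528 and 0.804. No other pair of groups met the limit of 0.1 in all 3 replicates. The methods describe 1 lysate per replicate divided among the RIPs beside a common Input, so blocked values stand beside each member result whose call they change.

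Members, lists and alternatives were chosen with earlier results of these data known. Named genes are the 9 members, the 3 protein-coding genes most alike to each over the 12 libraries, and the highest and lowest called gene per list and RIP, except for items that are not reported here. Alternatives were DESeq2 1.42.0, 3 other scalings, no filter, a minimum of 50, removal of a loess length trend (span 0.3), replicate blocks, fits of 2 groups alone and leaving out each library. Motifs were searched in the longest complete coding transcript of each gene in GENCODE M21. Depth limits low members most, and the lowest member count was 142.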

Additional observations from a re-analysis of the deposited data

Results flagged for a closer look

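The difference between 2 RIPs was tested directly for each member, and 10 differences passed. Log2 fold differences of YTHDF1 minus YTHDF2 were 4.82 for Cpeb2, 3.72 for Cpeb3, 3.69 for Cpeb4 and 1.12 for Fmr1. For YTHDF1 minus YTHDF3 they were 4.23 for Cpeb2, 3.31 for Cpeb3, 2.68 for Cpeb4, 1.01 for Fxr1 and -1.30 for Pum2. For YTHDF2 minus YTHDF3 the value was -1.50 for Pum2. All libraries of the groups compared were apart for each of these except Fmr1, whose lowest YTHDF1 library lay within the YTHDF2 range.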

How the results depend on the processing

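Calls of Cpeb2, Cpeb3, Cpeb4 and Fxr2 with YTHDF1, Pum2 with YTHDF3 and Stau2 with YTHDF2 against Input held under all 24 alternatives. Over 1296 alternatives for single members, 1158 kept direction and call, 49 gained a call, 34 lost one and 55 changed sign. The cause of these changes was not tested.

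Depleted members with YTHDF1, 0 in the report, numbered 2 with library size alone, 1 with TMM over protein-coding genes, 2 with the length trend removed and 2 with that and a replicate block. Enriched members with YTHDF2, 1 in the report, numbered 0 without a filter and 0 in the fit of 2 groups alone with a replicate block. Depleted members with YTHDF2, 1 in the report, numbered 2 with DESeq2 size factors, library size alone, protein-coding TMM, a minimum of 50, DESeq2 or both libraries that stood apart left out. They numbered 3 with the length trend removed, with or without the block, and with 2 groups alone, and 1 to 2 when single libraries were left out. Enriched members with YTHDF3, 2 in the report, numbered 4 with library size alone, 1 without a filter and 6 with 2 groups and a replicate block. Members that differed between YTHDF1 and YTHDF3, 5 in the report, numbered 2 with 2 groups and a block. Those between YTHDF2 and YTHDF3, 1 in the report, numbered 4 with library size alone, 4 without a filter, 2 with 2 groups alone, 2 with DESeq2 and 1 to 2 with single libraries left out.

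None of the values that changed sign is called in the model of all 12 libraries, but Fmr1 and Cpeb3 with YTHDF3 are called in the paired fit. With library size alone, YTHDF1 minus YTHDF3 became -0.45 for Fmr1, -0.52 for Stau1 and -0.72 for Stau2, YTHDF1 minus YTHDF2 became -0.29 for Pum2 and -0.03 for Stau1, YTHDF2 minus YTHDF3 became -0.05 for Fxr1, and against Input Stau1 became -0.30 with YTHDF1, and Fxr1, Stau1 and Stau2 became 0.21, 0.22 and 0.13 with YTHDF3. With protein-coding TMM, Stau1 with YTHDF1 became -0.13, Fxr1 and Cpeb2 with YTHDF2 became -0.02 and -0.01, and Stau2 between YTHDF1 and YTHDF3 became -0.17. Without a filter, Fxr1 became -0.02 with YTHDF2, 0.02 with YTHDF3 and -0.03 between them, Stau1 became 0.03 with YTHDF3 and Stau2 became -0.13 between YTHDF1 and YTHDF3. With the length trend removed, and with a block added, Fmr1 became -0.07 and -0.17 with YTHDF1 and -0.20 and -0.19 with YTHDF3, Stau1 with YTHDF1 became -0.24 in both, Fxr1 and Cpeb2 with YTHDF2 became -0.18 and -0.21, then -0.18 and -0.16, Cpeb3 with YTHDF3 became -0.04 and -0.06, Pum2 between YTHDF1 and YTHDF2 became -0.02 in both, and Stau2 between YTHDF1 and YTHDF3 became -0.07 in both. Stau2 in that comparison was also -0.05 with DESeq2 or its size factors, -0.09 with a minimum of 50, -0.17 with 2 groups alone and -0.19 with a block, where Fmr1 was -0.04.

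Leaving out single libraries gave ranges across 0 of -0.32 to 0.69 for Fmr1, -0.01 to 0.32 for Stau1 and -0.28 to 0.21 for Stau2 between YTHDF1 and YTHDF3, and -0.10 to 0.04 for Fxr2 between YTHDF2 and YTHDF3. Against Input they were -0.10 to 0.34 for Cpeb2 and -0.38 to 0.19 for Cpeb3 with YTHDF2, -0.06 to 0.65 for Cpeb3 and -0.18 to 0.06 for Stau1 with YTHDF3, and -0.06 to 0.22 for Stau1 and -0.42 to 0.02 for Stau2 with YTHDF1.

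Library size alone shifted the median over all genes by -0.40, 0.07 and 0.33 in the 3 RIPs, and the share of calls that were enriched to 33.2%, 48.8% and 61.4% from 51.4%, 45.3% and 41.7%. Protein-coding TMM moved that share to 39.96% with YTHDF1. Over all genes, 4662 enriched with YTHDF1 became 3087 with library size alone and 2393 with 2 groups and a block, and 2817 with YTHDF3 became 4822 and 6212. The 2479 genes that differed between YTHDF1 and YTHDF3 became 4207 with library size alone, 1535 with 2 groups and 419 with a block added. The 874 between YTHDF2 and YTHDF3 became 1812 without a filter, 1313 with 2 groups, 393 with a block, 1317 with DESeq2 and 179 to 1315 with single libraries left out. A replicate block over all 12 libraries changed 1 member call, Fxr1 between YTHDF1 and YTHDF3 (0.98, adjusted p = 0.0105, edgeR, under 2-fold).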

Other observations

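Cpeb1, the founding CPEB gene and no member of the set, was chosen after its values were seen. It had log2 fold changes of 0.61 ± 0.41 with YTHDF1, 0.87 ± 0.42 with YTHDF2 and 0.92 ± 0.41 with YTHDF3, none past the test (adjusted p = 0.232, 0.127 and 0.0976, edgeR). Whether this profile differs from those of Cpeb2, Cpeb3 and Cpeb4 was not tested.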
